A study of Homo sapiens with 9 samples.

Results

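Kelly, BE(2)C and SH-SY5Y are human neuroblastoma cell lines, and polyadenylated RNA was sequenced from 3 libraries of each, 9 in all. MYCN is amplified in Kelly and BE(2)C and not in SH-SY5Y, per the labels, and the cells of every library were untreated and collected at partial confluence. BE(2)C and SH-SY5Y are clonal sublines of older lines, so each line stands for 1 patient's tumour after long culture. The labels do not tie the numbered libraries to separate cultures, and every p-value therefore measures the spread between libraries only, part or all of which may be technical.

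The genes described here are those that set Kelly apart from both other lines at once. A gene was taken when its 3 Kelly values all lay above, or all below, each of the 6 BE(2)C and SH-SY5Y values by at least 4-fold, with every value on the higher side at 10 or more. Values are gene TPM: the deposited log10 values were taken back to TPM, a level corrected for transcript length and library total, and rescaled so that gene entries alone make up the TPM total, without spike-ins and vector markers. By this rule 120 genes were higher in Kelly (0.609% of 19706 usable symbols) and 56 were lower (0.284%), 176 in all. Since measured Kelly values chose these genes, their Kelly differences are a description and carry no test. The same rule took 190 genes for BE(2)C, 44 higher and 146 lower, and 292 for SH-SY5Y, 209 higher and 83 lower.

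Neuroblastoma arises from the sympathoadrenal lineage of the neural crest, the embryonic cells that form sympathetic neurons and the chromaffin cells of the adrenal medulla. Cells of this lineage make catecholamines through tyrosine hydroxylase and dopamine beta-hydroxylase, load them into vesicles, and follow a core of transcription factors that includes HAND2 and GATA3. Neuroblastoma lines are known to differ in how far they keep this noradrenergic programme and in which further developmental genes they express. Kelly had all 8 noradrenergic markers at 1 or more, with a summed level of 5257 to 5950 gene TPM. That sum was 4824 to 5037 in SH-SY5Y and 2744 to 3245 in BE(2)C. TH, which the rule chose for its high Kelly values, is among these markers. It adds 451 to 579 gene TPM to the Kelly sums and at most 0.395 to those of SH-SY5Y. The order of Kelly and SH-SY5Y in this sum therefore rests in part on the choice of members. In Kelly the summed markers of leukocytes reached at most 11.8 gene TPM, of epithelium 11.8, of mesenchymal cells 6.07, of glia 3.52, of liver 0.582 and of endothelium 0.425, and all 3 erythroid markers were listed at 0.

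The promoters of 6 members are shown because each gene was listed at or near 0 on one side of the comparison, and because DSC3 and DSG2 are neighbours that were high together. Each line holds the 250 bases before the most upstream RefSeq start (GRCh38.p14), 5′ to 3′ on the strand of the gene, with each CG dinucleotide, the target of DNA methylation in mammals, in capitals. The set was chosen after the levels were seen. The window of GAGE1, a cancer-testis gene, is chrX:49598763-49599012 on the plus strand. That of PRSS21, which encodes a testis serine protease, is chr16:2816987-2817236 on the plus strand. Those of DSC3 and DSG2, both desmosomal cadherins, are chr18:31042743-31042992 on the minus strand and chr18:31497927-31498176 on the plus strand. That of S100A6, a calcium-binding protein, is chr1:153535992-153536241 on the minus strand. That of CD99, a surface glycoprotein of the pseudoautosomal region, is chrX:2691045-2691294 on the plus strand.
GAGE1: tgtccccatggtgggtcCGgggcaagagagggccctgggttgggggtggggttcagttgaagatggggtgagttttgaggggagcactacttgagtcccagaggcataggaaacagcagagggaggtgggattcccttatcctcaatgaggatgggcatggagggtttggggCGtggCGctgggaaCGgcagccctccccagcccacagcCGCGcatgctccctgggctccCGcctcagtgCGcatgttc
PRSS21: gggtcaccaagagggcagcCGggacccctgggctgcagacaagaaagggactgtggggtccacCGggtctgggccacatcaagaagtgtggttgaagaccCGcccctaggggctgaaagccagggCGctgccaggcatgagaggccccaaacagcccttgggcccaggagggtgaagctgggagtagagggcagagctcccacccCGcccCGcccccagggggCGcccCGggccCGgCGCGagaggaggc
DSC3: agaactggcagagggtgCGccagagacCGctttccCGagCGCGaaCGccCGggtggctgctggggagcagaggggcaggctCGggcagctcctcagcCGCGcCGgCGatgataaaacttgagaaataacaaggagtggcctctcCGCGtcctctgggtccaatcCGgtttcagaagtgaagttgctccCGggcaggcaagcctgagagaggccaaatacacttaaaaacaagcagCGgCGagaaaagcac
DSG2: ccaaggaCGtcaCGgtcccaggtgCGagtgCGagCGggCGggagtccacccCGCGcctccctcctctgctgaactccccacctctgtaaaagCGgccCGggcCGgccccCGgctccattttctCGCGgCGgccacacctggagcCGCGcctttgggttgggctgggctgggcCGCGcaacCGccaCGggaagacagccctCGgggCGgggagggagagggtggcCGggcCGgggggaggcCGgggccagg
S100A6: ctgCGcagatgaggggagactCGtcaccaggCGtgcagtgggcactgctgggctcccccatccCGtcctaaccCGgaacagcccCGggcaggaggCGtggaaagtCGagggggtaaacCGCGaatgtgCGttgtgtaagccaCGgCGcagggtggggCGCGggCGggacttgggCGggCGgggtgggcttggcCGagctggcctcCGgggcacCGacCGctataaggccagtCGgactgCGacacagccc
CD99: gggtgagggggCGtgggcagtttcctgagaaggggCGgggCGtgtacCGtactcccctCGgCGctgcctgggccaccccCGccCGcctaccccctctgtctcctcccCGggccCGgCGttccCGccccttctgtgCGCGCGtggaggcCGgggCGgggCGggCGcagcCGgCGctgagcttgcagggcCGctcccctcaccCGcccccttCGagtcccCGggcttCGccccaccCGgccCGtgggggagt
The GAGE1 window holds 8 CG dinucleotides and that of PRSS21 holds 11, both fewer than the median of 21 over 10652 tested genes with a promoter in the table. The windows of DSC3 with 18, S100A6 with 24, DSG2 with 26 and CD99 with 28 lie nearer that median. GAGE1, PRSS21, DSC3 and DSG2 were high in Kelly, and S100A6 and CD99 were at or near 0 there.

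The higher set was mostly made of genes with little RNA in the other lines. Of the 120 genes, 88 were under 5 gene TPM in all 6 other libraries, 35 were under 1, and 8 were listed at 0 in all 6. In Kelly their mean level ran from 10.5 to 586 gene TPM with a median of 28.6, and 18 reached 100 or more. The median coefficient of variation among the Kelly libraries was 11.4% for these genes. In bulk RNA, fewer expressing cells and less RNA per cell cannot be told apart. The gap between the sides, taken as the lowest Kelly value over the highest other value, was at least 8-fold for 65 genes and at least 16-fold for 47. Among the 56 lower genes, 22 were under 1 in every Kelly library, and 5 (CD99, HIST2H3PS2, ENPP2, LINC00116 and SLC27A6) were listed at 0 in all 3. The mean over the 6 other libraries ran from 13.6 to 969 gene TPM in the lower set, with a median of 36.6. Their gap was at least 8-fold for 34 genes and at least 16-fold for 25. To rank genes whose lower side is at 0, the gap was taken after adding 1 gene TPM to both values, and every order of gaps given here holds on that scale only.

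**Figure D1:**
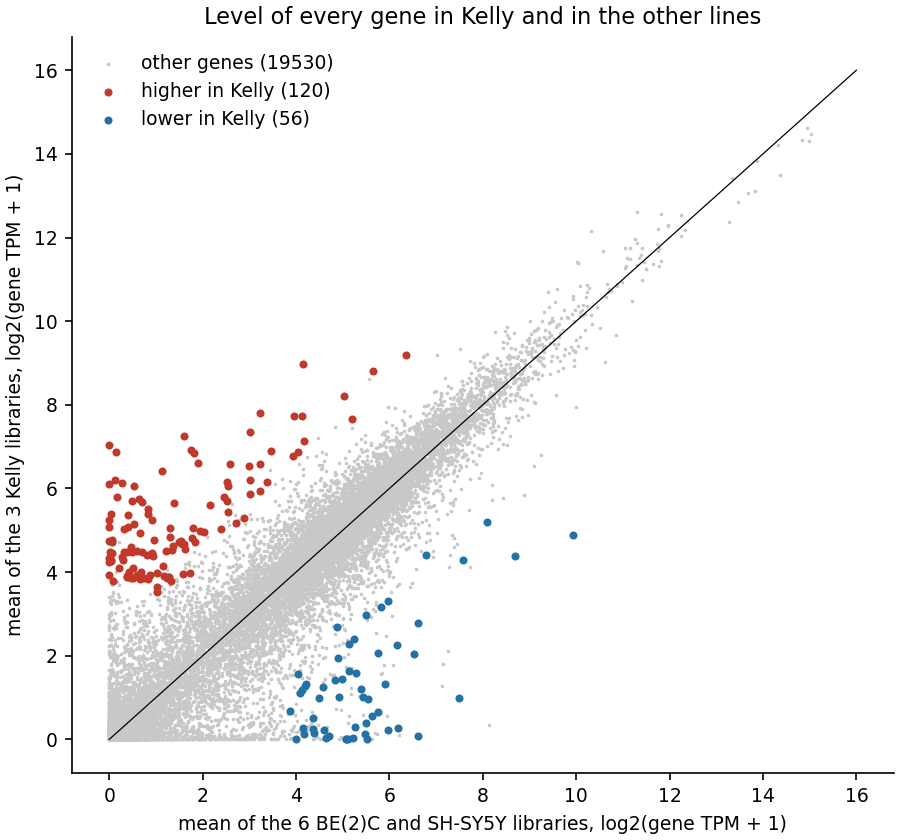
Each point is a gene: the horizontal axis is its mean level in the 6 BE(2)C and SH-SY5Y libraries and the vertical axis its mean level in the 3 Kelly libraries, both as log2(gene TPM + 1). The 120 higher genes (red) crowd at the left edge, where the other lines had little RNA, and the 56 lower genes (blue) lie along the bottom and the lower right.

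Cancer-testis genes, which normal adult tissue expresses mainly in male germ cells, held the widest gaps on the higher side with 1 gene TPM added. GAGE12J had 138, 113 and 138 gene TPM in the Kelly libraries and was listed at 0 in all 6 BE(2)C and SH-SY5Y libraries. MAGEA1 had 107, 118 and 124 gene TPM in Kelly, had 0.331, 0.138 and 0.125 in SH-SY5Y, and was listed at 0 in every library of BE(2)C. Both genes were therefore high in every Kelly library, and no library of the other lines reached 1. MAGEA10 showed the same order at 83.4, 83.4 and 84.8 gene TPM in Kelly, 1.72 to 2.51 in SH-SY5Y and at most 0.222 in BE(2)C. GAGE1 (20.9, 30.3 and 26.4) and GAGE2A (14.002, 17.3 and 11.5) were listed at 0 in all 6 other libraries. GAGE copies are near identical, and GAGE1 and GAGE2A overlap in the annotation, so how reads were split among them is uncertain and only the family as a whole can be read.

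PRSS21 had 51.05, 79.5 and 72.7 gene TPM in Kelly and was listed at 0 elsewhere. CT55, a further cancer-testis gene, had 39.1, 34.4 and 36.6 in Kelly and at most 1.49 elsewhere. TPTE, a testis-expressed phosphatase homologue, had 21.3, 20.7 and 20.8 against at most 0.278. The family did not move as a block. MAGEA3 had 5.67, 9.43 and 4.199 gene TPM in Kelly, was listed at 0 in BE(2)C and had 67.5, 60.1 and 59.5 in SH-SY5Y, and MAGEA6 and MAGEA12 had the same order of lines. MAGEH1, of the ubiquitously expressed branch of the family, was a lower member: 1.43, 2.92 and 1.67 gene TPM in Kelly, 43.2, 45.4 and 41.9 in SH-SY5Y, and 33.9, 31.05 and 32.7 in BE(2)C. Of 33 MAGE and GAGE genes of the X chromosome, 9 had all Kelly values above the other 6 and 3 had all below, by any amount, beside 12.6% above and 6.91% below over all 19706 symbols. Among the 13076 genes that passed the filter on low values these shares were 17.3% and 9.80%. The MAGE and GAGE count takes each GAGE copy as a gene of its own. GAGE12C and GAGE12D had the same value in every library, so the 9 are not independent of one another. The MAGE and GAGE family, like those of the Notch pathway, desmosome, oxygen sensing, GATA factors and synaptotagmins below, was put together after the members' values were seen.

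**Figure D2:**
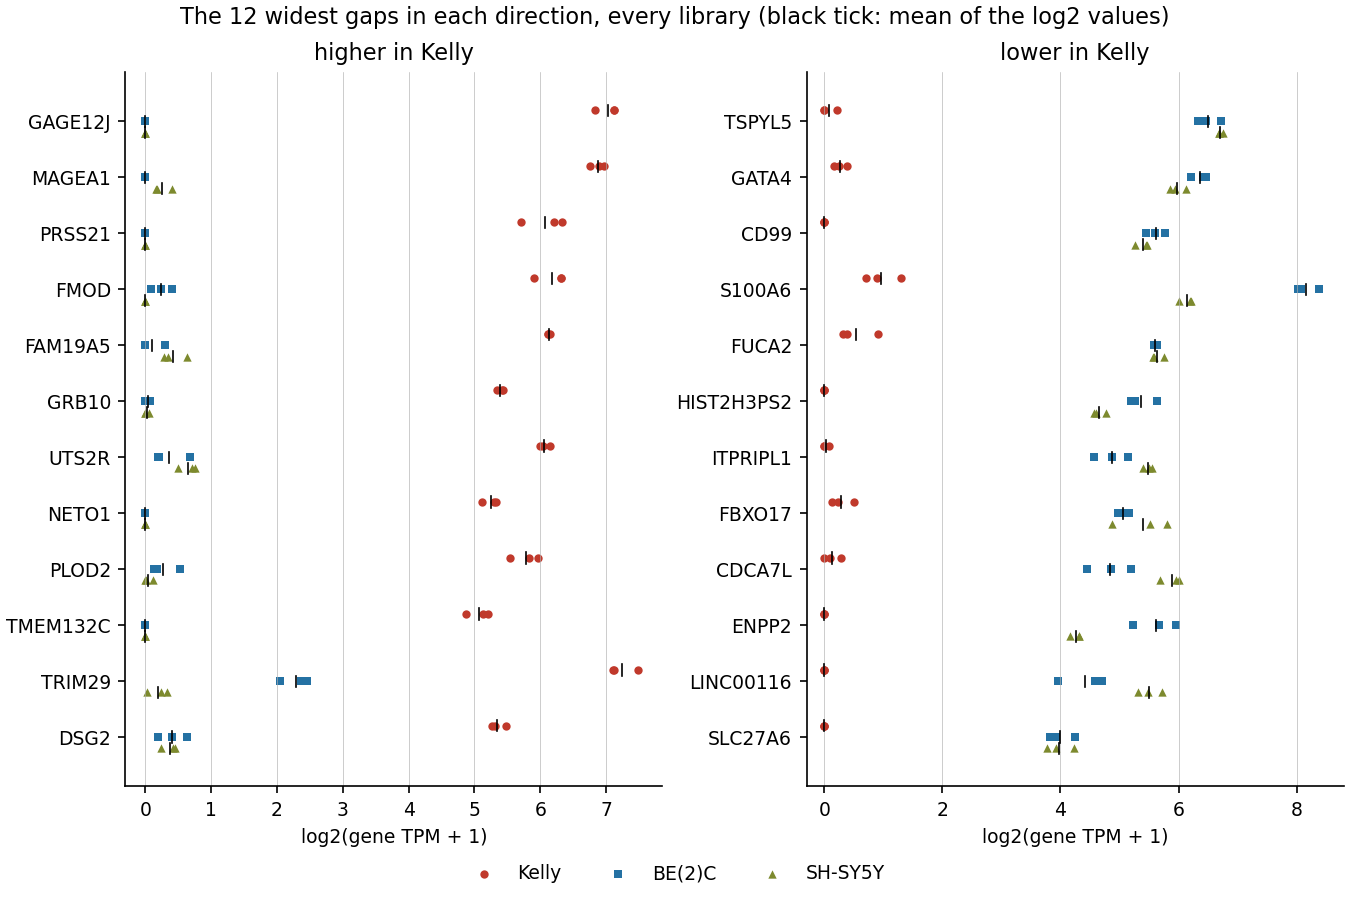
Levels of the 12 genes with the widest gap in each direction, 1 point per library on a log2(gene TPM + 1) axis, with a black tick at the mean of the log2 values of each line. No Kelly point overlaps another line in any of the 24 genes, and in several, such as S100A6, ENPP2 and TRIM29, the BE(2)C and SH-SY5Y points also stand apart from each other.

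Catecholamine synthesis and storage set Kelly apart through 2 genes. TH had 579, 469.6 and 451 gene TPM in Kelly, 0, 0.265 and 0.395 in SH-SY5Y, and 32.04, 34.1 and 33.3 in BE(2)C. Tyrosine hydroxylase carries out the rate-limiting step of catecholamine synthesis, and its values fell into 3 separate ranges with Kelly on top and SH-SY5Y near 0. SLC18A2, the vesicular monoamine transporter, kept the same order with 123, 90.8 and 77.3 gene TPM in Kelly, 0, 0.263 and 0.152 in SH-SY5Y and 6.11, 5.31 and 4.47 in BE(2)C. Of 15 tested genes of catecholamine synthesis, storage and breakdown, 4 were called higher in Kelly than in both lines and 2 lower. Here called means a Benjamini-Hochberg adjusted p under 0.05 against each line in limma's trend method, which held for 13.0% of 13076 tested genes in the higher and 11.2% in the lower direction. The non-members called higher were DBH, the enzyme that turns dopamine into noradrenaline, at 1746 ± 281 gene TPM (SD, n = 3) in Kelly, 1117 ± 32.7 in SH-SY5Y and 429 ± 63.7 in BE(2)C, and MAOA, a monoamine oxidase, at 172 ± 6.63, 69.6 ± 1.32 and 2.16 ± 0.454 in the same order. SLC6A2, the noradrenaline transporter, and GCH1, which supplies the tetrahydrobiopterin cofactor of tyrosine hydroxylase, were called lower.

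The receptor ADRA2A, through which noradrenaline inhibits its own release, had 57.7, 69.9 and 68.3 gene TPM in Kelly, 1.28, 1.32 and 1.49 in SH-SY5Y and 7.76, 7.83 and 9.42 in BE(2)C. The secretory peptides split. SST had 153, 104 and 100.2 gene TPM in Kelly, was listed at 0 in every library of SH-SY5Y, and had 4.97, 3.85 and 5.27 in BE(2)C. Somatostatin was thus present in Kelly, low in BE(2)C and listed at 0 in SH-SY5Y. VGF had 27.1, 29.3 and 29.5 gene TPM in Kelly, 1599, 1689 and 1615 in SH-SY5Y, and 261, 302 and 348 in BE(2)C. VGF, a granin-like precursor of secretory granules, was lower in Kelly by at least 8.84-fold. PCSK1N, the granule protein proSAAS, had 44.5, 32.04 and 30.9 in Kelly against 216 to 330 elsewhere, and VIP, vasoactive intestinal peptide, had 4.23, 1.98 and 3.08 against 32.8 to 172. Of 17 tested granins and neuropeptides, 4 were called higher and 6 lower in Kelly, with SCG2 (53.6 ± 1.46 gene TPM in Kelly, 556 ± 61.5 in BE(2)C, 135 ± 5.63 in SH-SY5Y) and NPY among the lower.

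Transcription factors stood on both sides. EPAS1, the oxygen-regulated factor HIF-2 alpha, was among the most abundant members: 506, 427 and 415 gene TPM in Kelly, 63.2, 65.1 and 59.98 in SH-SY5Y, and 25.3, 37.6 and 44.7 in BE(2)C. All 3 Kelly values lay far above the other 6, and the difference between BE(2)C and SH-SY5Y did not pass limma's test (log2 difference −0.38 ± 0.21 SE, adjusted p = 0.151). EGLN3, a prolyl hydroxylase that marks HIF proteins for breakdown under oxygen, was a lower member: 5.58, 3.41 and 3.95 gene TPM in Kelly, 31.8, 30.3 and 31.3 in SH-SY5Y, and 50.3, 38.5 and 40.02 in BE(2)C. Of the other oxygen-sensing genes, HIF1A was 90.4 to 132 gene TPM over all 9 libraries and EGLN1 25.6 to 35.7. Of the 10 genes examined, EPAS1 and EGLN3 were the only members.

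GATA4, a factor of heart and endoderm development, was nearly absent from Kelly alone. GATA4 had 0.303, 0.113 and 0.191 gene TPM in Kelly, 68.7, 60.4 and 57.04 in SH-SY5Y, and 87.2, 73.3 and 83.95 in BE(2)C. GATA2 and GATA3, the members of that family known in sympathetic neurons, were high in all 9 libraries, at 855 to 1552 and 219 to 675 gene TPM. Also lower in Kelly were SNAI2, a zinc finger repressor of neural crest (0, 2.33 and 1.15 against 13.8 to 19.98), MSX2, a homeobox factor (2.05, 1.78 and 1.31 against 11.6 to 47.6), and NFIX (0.153, 0.0766 and 0.0447 against 10.9 to 21.96). LYL1, a basic helix-loop-helix factor of blood development, had 1.68, 0.957 and 1.91 against 12.8 to 21.5.

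Among the higher factors, HOXD13 had 40.3, 54.1 and 54.3 gene TPM in Kelly, 0.126, 0.105 and 0 in SH-SY5Y, and 3.84, 2.74 and 2.91 in BE(2)C. HOXD13 is the most 5′ HOXD gene, known for the distal limb. INSM1, a zinc finger factor of neuroendocrine cells, had 26.6, 22.5 and 21.6 gene TPM in Kelly, 1.45, 4.41 and 3.65 in BE(2)C and was listed at 0 in SH-SY5Y. SALL4, an embryonic stem cell factor, had 59.1, 54.7 and 50.8 against 3.34 to 5.81. POU4F1, a POU factor of sensory neurons, had 27.5, 29.5 and 31.2 against at most 1.43, and its relative POU3F1 had 17.1, 11.1 and 12.1 against at most 1.67. Of 25 tested noradrenergic transcription factors, 5 were called higher and 3 lower. The core factors HAND2, ISL1 and GATA3 were not among them, and for each the Kelly mean lay between those of the other lines. TRIM71, a known let-7 target and RNA-binding ubiquitin ligase, had 23.8, 24.8 and 28.7 gene TPM in Kelly, 0.358, 0.488 and 0.296 in SH-SY5Y and 2.9001, 3.13 and 4.28 in BE(2)C. Of 27 tested oncofetal and let-7 axis genes, 14 were called higher in Kelly and 3 lower, with IGF2BP1 at 391 ± 10.9, 93.0 ± 11.2 and 0.158 ± 0.0491 gene TPM in Kelly, BE(2)C and SH-SY5Y. These lists were drawn up with earlier results of these data known, so their counts describe and do not support a direction.

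Notch signalling passes between touching cells from ligands of the Delta and Jagged families to Notch receptors, Fringe glycosyltransferases tune which ligand is bound, and HES and HEY repressors are its classic targets. In Kelly 4 genes at these steps were higher members, 1 ligand, 2 Fringe enzymes and 1 target-type repressor. JAG2, a ligand, had 37.4, 37.2 and 31.4 gene TPM in Kelly, 7.27, 7.48 and 5.98 in SH-SY5Y and 3.12, 4.24 and 5.46 in BE(2)C. LFNG, the lunatic Fringe, had 62.5, 58.03 and 60.6 against 6.28 to 11.6. MFNG, the manic Fringe, had 39.3, 29.3 and 29.7 against at most 0.569, and HEYL, a repressor, had 19.05, 19.3 and 17.7 against at most 0.336.

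The rest of the pathway did not follow in 1 direction. Of the non-members, DLL1, DLL3, HES7, HEY2, RBPJ and NRARP had all Kelly values above the other 6, and HES1 and HES6 all below. DLL1, HES7 and HEY2 stayed under 10 gene TPM in Kelly. NRARP had 52.1, 42.4 and 36.9 in Kelly against 18.6 to 28.8. The receptor NOTCH2 had 0.147, 0.1001 and 0.171 gene TPM in Kelly and at most 0.211 in BE(2)C, but 26.01, 32.6 and 30.7 in SH-SY5Y, and NOTCH3 was also highest in SH-SY5Y. HES1, the best known target, was low in Kelly at 0.265, 1.45 and 1.24 against 4.12 to 6.86 in SH-SY5Y and 12.5 to 19.95 in BE(2)C. Over 28 pathway genes, 10 had all Kelly values above the other 6 and 2 had all below, beside 12.6% and 6.91% of all symbols, and 13 of the 28 reached 10 gene TPM in all 3 Kelly libraries or in all 6 of the others.

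**Figure D3:**
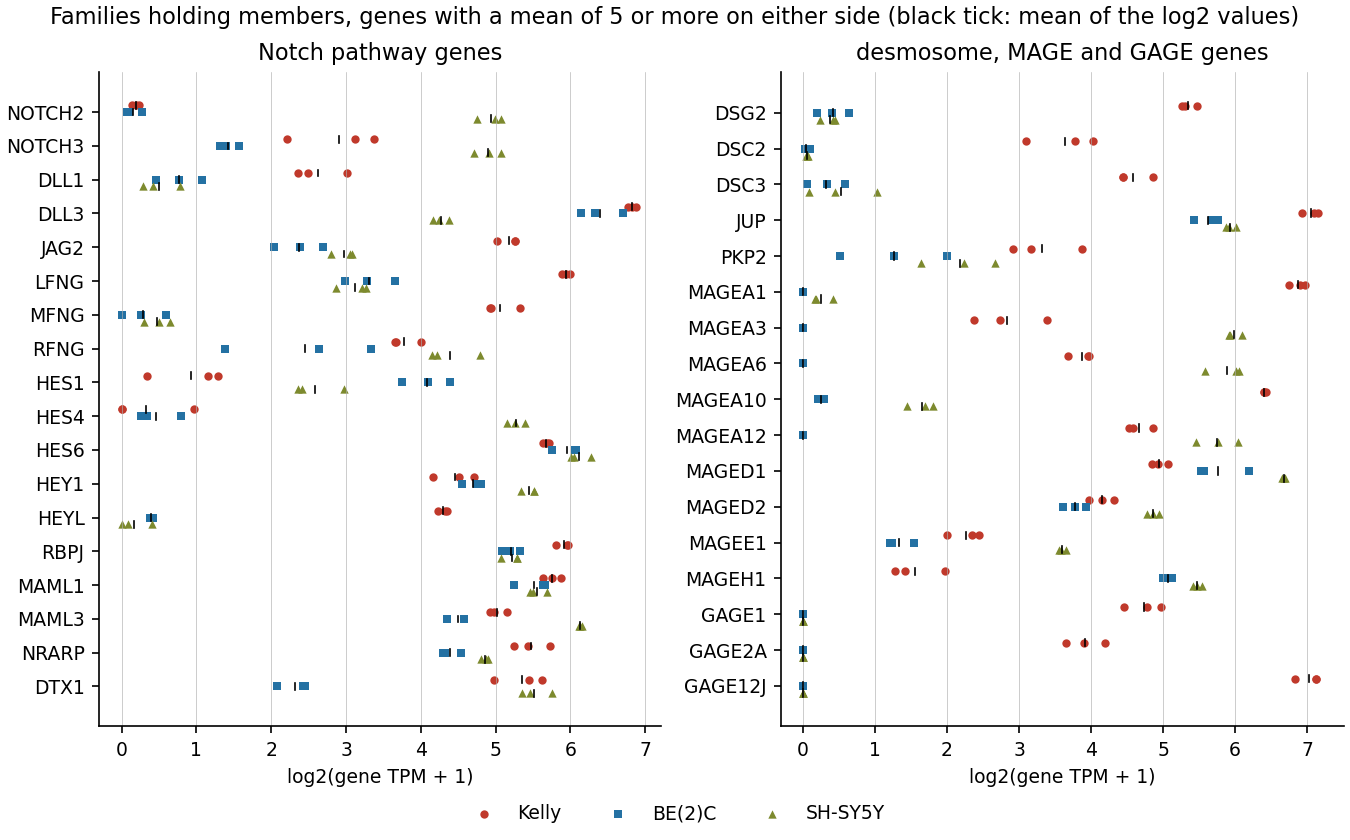
Levels per library of the Notch pathway genes (left) and of desmosome, MAGE and GAGE genes (right) whose mean was 5 or more in Kelly or in the other 6 libraries, as log2(gene TPM + 1), with black ticks at the mean of the log2 values. MFNG, HEYL, DSG2, DSC3 and the GAGE genes sit far right in Kelly alone, while NOTCH2, NOTCH3 and MAGEA3 are highest in SH-SY5Y.

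Desmosomes are adhesive junctions built from desmoglein and desmocollin cadherins with plakoglobin, plakophilins and desmoplakin inside the cell, and are typical of epithelium and heart. DSG2 had 37.5, 38.6 and 43.5 gene TPM in Kelly, 0.3397, 0.363 and 0.184 in SH-SY5Y, and 0.1405, 0.325 and 0.559 in BE(2)C. DSC3 had 20.8, 20.8 and 28.1 gene TPM in Kelly and at most 1.05 elsewhere. Further desmosome genes missed the rule: DSC2 had 12.7, 7.59 and 15.2 gene TPM in Kelly, where 1 value is under 10, and at most 0.0665 elsewhere, and plakoglobin (JUP) had 141, 136 and 121 against 42.1 to 63.8. Desmoplakin (DSP) was listed at 0 in all 3 Kelly libraries and was at most 0.0249 elsewhere, so all lines lacked it alike. Of 13 desmosome genes, 5 had all Kelly values above the other 6 and none had all below, beside 12.6% and 6.91% of all symbols. The summed epithelial markers were 7.02 to 11.8 gene TPM in Kelly, 3.04 to 5.20 in SH-SY5Y and 4.08 to 5.36 in BE(2)C, and their part in these levels was not tested. KRT19 made up most of the Kelly sum, with 11.4, 7.38 and 5.61 there and 1.22 to 3.98 elsewhere. EPCAM, CDH1 and KRT18 were at most 1.27, 0.129 and 0.386 in Kelly, and KRT8 was listed at 0. Each of these last markers reached a higher value in another line.

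Other adhesion and matrix genes were divided. FMOD, fibromodulin, a collagen-binding proteoglycan, had 59.2, 78.4 and 78.7 gene TPM in Kelly and at most 0.328 elsewhere. PLOD2, a lysyl hydroxylase of collagen, had 45.6, 55.9 and 61.6 against at most 0.441. LAMA1 had 52.3, 50.1 and 50.7 gene TPM in Kelly, had 7.94, 10.2 and 10.2 in SH-SY5Y, and was listed at 0 in every library of BE(2)C. The laminin chain LAMA1 was thus listed at 0 in BE(2)C and intermediate in SH-SY5Y. CNTNAP2, a neurexin-family adhesion protein of axons, had 113, 121 and 111 against 4.68 to 18.8. On the lower side, IGLON5 had 0, 0.219 and 0.281 against 10.9 to 112 and LSAMP 3.18, 4.95 and 3.47 against 21.6 to 44.7, both immunoglobulin-domain proteins of neurons. Of 43 tested collagen and matrix genes, 12 were called higher and 6 lower, and of 39 cadherins, protocadherins and immunoglobulin adhesion genes, 9 higher and 11 lower.

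Axon guidance cues and receptors were members in both directions. SEMA3F, a secreted repellent, had 42.2, 41.6 and 42.6 gene TPM in Kelly against 2.99 to 8.48, while its relative SEMA3C had 1.05, 1.102 and 1.79 against 12.96 to 72.1. EPHB3, an ephrin receptor, had 113, 105 and 107 against 10.2 to 20.2. PLXNA4, a semaphorin co-receptor, had 4.66, 3.16 and 3.53 against 20.2 to 116. Of 43 tested guidance genes, 9 were called higher and 5 lower. BMP7, a secreted morphogen, had 208, 234 and 190.0 in Kelly, 0.705, 1.29 and 0.9601 in SH-SY5Y and 29.2, 31.5 and 35.1 in BE(2)C.

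Growth factor receptors and their partners included GFRA1, the co-receptor of GDNF, with 24.1, 30.2 and 25.01 gene TPM in Kelly and at most 0.154 elsewhere, and MET, the hepatocyte growth factor receptor, with 10.01, 11.05 and 10.6 against at most 2.32. GRB10 and INSR belong to 1 pathway and lay on opposite sides. GRB10 had 39.4, 41.7 and 42.3 gene TPM in Kelly, 0, 0 and 0.0435 in SH-SY5Y, and 0.0417, 0 and 0.05702 in BE(2)C. GRB10 is an adaptor that binds and restrains insulin and IGF receptors. INSR had 0.01604, 0 and 0.0517 gene TPM in Kelly, 33.5, 39.3 and 30.9 in SH-SY5Y, and 13.3, 11.9 and 14.4 in BE(2)C. INSR encodes the insulin receptor, and its RNA was near 0 in each Kelly library. Of 25 tested receptor kinases and co-receptors, 5 were called higher and 2 lower.

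Ion channels, synaptic and vesicle proteins made up 14 of the 120 higher and 3 of the 56 lower members. This grouping by function was made after the values were seen. The share of such genes among all tested genes was not counted, so these numbers show no excess in either direction. SCN1A, a voltage-gated sodium channel, had 17.6, 27.02 and 19.2 gene TPM in Kelly and at most 0.496 elsewhere. The potassium channel genes KCNG1 (82.9, 74.7 and 53.2), KCNJ12 (49.6, 47.8 and 45.2) and KCNK5 (14.2, 12.4 and 15.6) stayed at or under 9.06, 6.65 and 3.09 in the other lines. NETO1, an auxiliary subunit of kainate receptors, had 33.5, 39.3 and 38.5 and was listed at 0 in all 6 other libraries. Of the synaptotagmins, calcium sensors of vesicle release, SYT2 had 35.7, 50.6 and 47.6 against at most 1.65 and SYT6 had 20.2, 16.9 and 17.7 against at most 0.125. SYT1, the main neuronal form, was highest in BE(2)C at 193, 151 and 172. Over the lists, 9 of 45 tested sodium, potassium and calcium channels were called higher and 6 lower, 11 of 36 neurotransmitter receptors higher and 4 lower, and 7 of 31 synaptic vesicle genes higher and 2 lower. On the deposited scale the last count turned to 3 higher and 6 lower.

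Cytoskeletal members lay on both sides. NEFH, the heavy neurofilament subunit, had the highest mean of the higher set, with 523, 617 and 619 gene TPM in Kelly, 62.5, 64.6 and 62.1 in SH-SY5Y and 124, 86.2 and 88.1 in BE(2)C. TUBA1C had 288, 297 and 295, 7.899, 4.63 and 6.66 and 57.3, 54.95 and 58.7 in Kelly, BE(2)C and SH-SY5Y, and TUBB4A, a beta tubulin of neurons, lay on the lower side with 6.94e-04, 2.49 and 0.5498 against 12.3 to 70.6. Tubulin genes are close copies, so reads may have been split among them. A gene that every cell uses also had low values here: HSPA8, a constitutive chaperone, was 0.644 to 3.36 gene TPM in Kelly and at most 13.04 anywhere, and TUBB was listed at 0 in 1 SH-SY5Y library. A value of 0 is therefore given as listed, and may be a failed estimate.

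The lower set held several genes that were abundant in both other lines. S100A6 had 0.623, 0.857 and 1.47 gene TPM in Kelly, 72.9, 72.2 and 63.4 in SH-SY5Y, and 332, 268 and 259.6 in BE(2)C. LGALS1 had 24.6, 12.2 and 22.9 gene TPM in Kelly, 199.9, 200.4 and 192 in SH-SY5Y, and 761, 573 and 526 in BE(2)C. LGALS1, galectin-1, binds sugars on glycoproteins and S100A6 binds calcium, and both are known as high in mesenchymal cells. CD99 was listed at 0 in every library of Kelly, had 42.8, 37.6 and 43.1 in SH-SY5Y, and had 42.9, 53.8 and 47.5 in BE(2)C. TSPYL5, a nucleosome assembly-like protein, had 0, 0 and 0.163 gene TPM in Kelly against 79.1 to 107, the widest gap on this side with 1 gene TPM added. ENPP2, which encodes the lysophospholipase autotaxin, was listed at 0 in Kelly and was 18.9, 18.9 and 16.96 in SH-SY5Y and 61.2, 36.6 and 49.9 in BE(2)C. FUCA2, a fucosidase, had 0.886, 0.242 and 0.311 against 46.3 to 53.3. Of 20 tested mesenchymal identity genes, 5 were called higher and 6 lower in Kelly, so this list was divided. Vimentin (VIM) was among the lower, at 29.7 ± 3.77 gene TPM against 67.7 ± 3.02 in SH-SY5Y and 160 ± 34.9 in BE(2)C. The summed markers of fibroblasts and mesenchyme were 2.11 to 6.07 in Kelly, 21.96 to 24.1 in SH-SY5Y and 6.47 to 18.9 in BE(2)C. Among these markers PRRX1 went the other way, with 0.0975, 1.51 and 2.77 in Kelly and at most 0.139 elsewhere.

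Zinc finger genes of chromosome 19, ZNF90, ZNF69, ZNF439 and ZNF792, were all lower members. ZNF792 had 2.04, 1.25 and 1.69 gene TPM in Kelly against 18.0 to 36.1 and ZNF90 had 0.378, 0 and 0.185 against 13.5 to 27.5. The other 11 lists gave these counts of called genes, higher and lower in Kelly: intermediate filaments and neuronal cytoskeleton 2 and 5 of 20, neuronal RNA-binding proteins 5 and 1 of 18, S100 and annexin proteins 2 and 2 of 13, HOX genes 3 and 0 of 14, and cancer-testis antigens 9 and 1 of 20. The cancer-testis list counts GAGE copies as separate genes. Targets of p53 gave 9 and 0 of 27, MHC class I and interferon genes 0 and 4 of 19, apoptosis genes 4 and 1 of 26, and proliferation genes 6 and 4 of 30. Candidate tumour suppressors of 1p36 and 11q gave 3 and 6 of 16, and markers of other cell types 0 and 1 of 10. Over all 23 lists, 135 of 564 distinct tested genes were called higher and 77 lower, and 36 list genes were members. The median log2 difference of Kelly from the mean of the other lines was 1.77 for cancer-testis antigens, 1.25 for oncofetal and let-7 axis genes and −0.43 for granins and neuropeptides, beside 0.02 over all tested genes. On the deposited scale these medians were 0.28, 0.48 and −0.81, beside −0.24 over all. There the apoptosis count turned to 2 higher and 4 lower, the proliferation count to 3 and 8, and that of noradrenergic transcription factors to 3 and 4. The counts of catecholamine genes (3 and 3), receptor kinases (3 and 3), guidance genes (8 and 8) and channels (7 and 7) were level on that scale.

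The member rule bounded all 6 values of BE(2)C and SH-SY5Y but did not use which of these lines a value came from. Since the bounds limit how far the lines can differ, the members' counts are a description. BE(2)C and SH-SY5Y differed in 59.4% of 13076 tested genes, 28.6% higher and 30.7% lower in BE(2)C, by limma at an adjusted p under 0.05. Of the 120 genes higher in Kelly, 35 were called higher in BE(2)C, 23 lower and 62 were not called, so 48.3% differed. Of the 56 lower genes, 19 were called higher in BE(2)C, 12 lower and 25 were not called, or 55.4%. The medians of the log2 difference were 0.09 and 0.02, against −0.04 over all genes. Of the higher genes, 88 lay under 5 in all 6 of these libraries, where the pseudocount of 1 damps a difference. Among them 35 lay under 1 and 8 were listed at 0 in all 6. Those 8 passed the filter on low values through Kelly alone and could not be called. The 48.3% is therefore not like for like with the 59.4% over all tested genes. With library totals in place of trimmed-mean factors, the higher set split into 28 higher and 29 lower in BE(2)C. The lower set then split into 7 higher and 23 lower.

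The widest differences between BE(2)C and SH-SY5Y gave graded genes, with Kelly highest and 1 other line in between. TH differed by 5.11 ± 0.16 on the log2 scale (SE; adjusted p = 2.45e-08 by limma), with 33.2 ± 1.03 gene TPM (SD, n = 3) for BE(2)C and 0.21997 ± 0.201 for SH-SY5Y. BMP7 differed by 4.41 ± 0.15 (adjusted p = 3.40e-08) and LCP1, an actin-bundling protein of leukocytes, by 3.91 ± 0.24 (adjusted p = 1.13e-06). SLC18A2 differed by 2.71 ± 0.22 and CRB2, a polarity protein, by 3.47 ± 0.18. In the opposite direction SH-SY5Y was in between for GTSF1, a germline small-RNA pathway protein (−3.20 ± 0.27), and for STK26, a kinase (−2.60 ± 0.25). LAMA1, listed at 0 in BE(2)C, and SST, listed at 0 in SH-SY5Y, were also called, and no fold is given for them.

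Among the lower genes, S100A6 was higher in BE(2)C by 2.48 ± 0.15 (adjusted p = 1.04e-06), VIP by 2.40 ± 0.25 and LGALS1 by 2.09 ± 0.24. SH-SY5Y was the higher line for IGLON5 (−2.47 ± 0.20), VGF (−1.97 ± 0.12), SEMA3C (−1.74 ± 0.16) and MAPKAPK2, a stress kinase (−1.60 ± 0.14). TUBB4A was called at −1.57 ± 0.40 (adjusted p = 0.00786), and not with a pseudocount of 0.1 (adjusted p = 0.162).

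**Figure D4:**
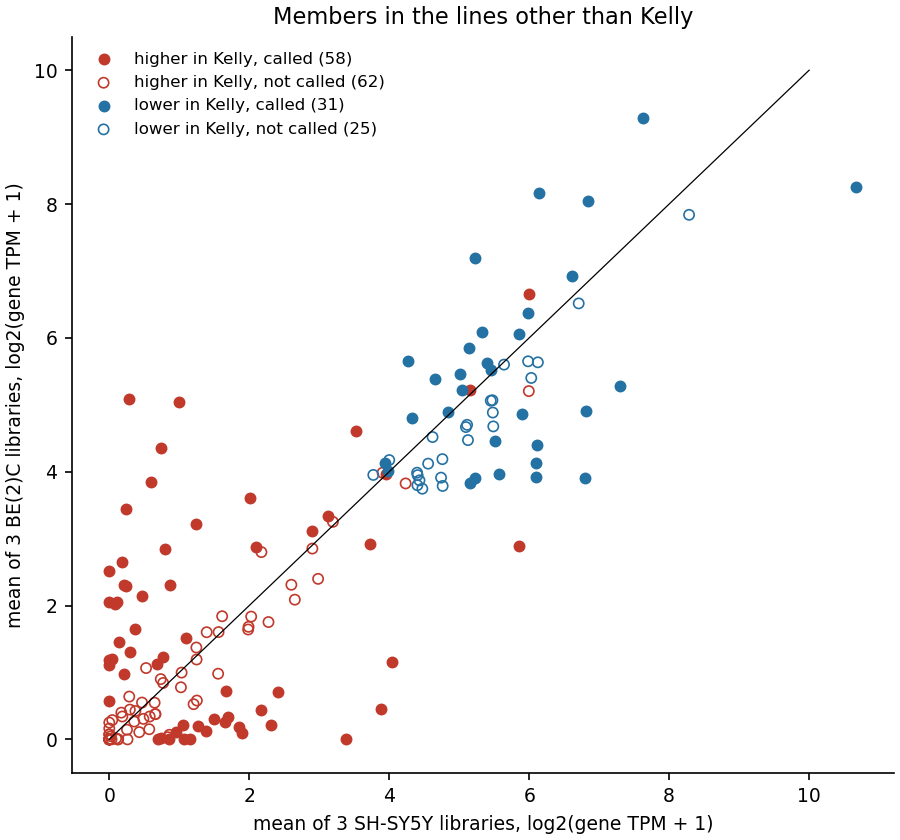
Mean level of each member in SH-SY5Y (horizontal) and BE(2)C (vertical), as log2(gene TPM + 1); filled points were called different between these lines by limma and open points were not. Red points, higher in Kelly, gather near the origin, with 35 called higher and 23 called lower in BE(2)C, and the 56 blue points, lower in Kelly, lie farther out along both axes.

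By position, 174 members matched GENCODE 29 on GRCh38. Chromosome 18 held 6 higher members among 187 tested genes (3.21%) and chromosome X 12 among 482 (2.49%), beside 0.908% over all chromosomes. The lower members were most numerous on chromosome 19, with 10 of 963 tested genes (1.04%, beside 0.431% over all) and 1 higher member there. Their share was the same on chromosome X, with 5 of 482 (1.04%), and was 0.866% on chromosome 8. Chromosome 12 held 9 higher and no lower members. The fullest 10 Mb window was X from 130 to 140 Mb, with 5 higher members among 37 tested genes, ARHGAP36, IGSF1, STK26 and CT55 among them. The next, X from 40 to 50 Mb, held SLC38A5, an amino acid transporter, and the 3 GAGE genes, with PCSK1N of the lower set among them. The GAGE copies count as separate genes in this window and in the share of chromosome X. Chromosome 19 from 10 to 20 Mb held 4 lower members among 223. No test was made of these positions, and copy number was not measured in these libraries.

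**Figure D5:**
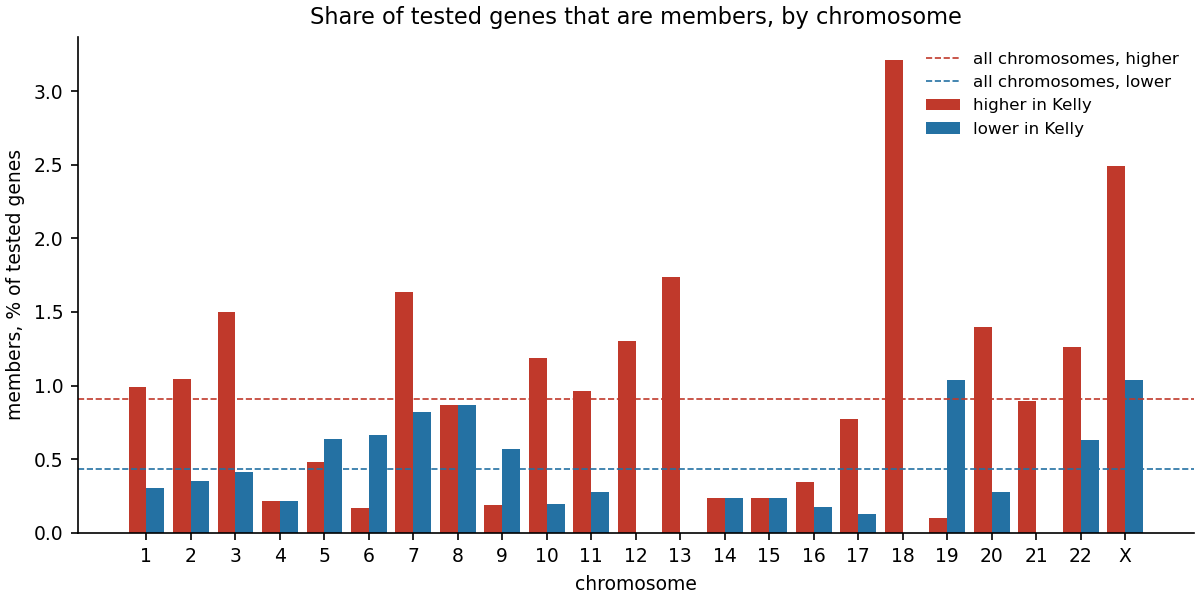
Members as a percentage of the tested genes on each chromosome, red for higher and blue for lower in Kelly, with dashed lines at the share over all chromosomes (0.908% and 0.431%). Chromosomes 18 and X have the tallest red bars. The blue bars of chromosomes 19 and X are both at 1.04%, and the red bar of chromosome 19 is at 0.104%.

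Members lay near one another in 25 pairs within 1 Mb, of which 14 were both higher, 4 both lower and 7 opposite. The pairs both higher include GAGE12J with GAGE1, and GAGE1 with GAGE2A, which are copies of 1 family. DSC3 (chr18:30990008-31042815) and DSG2 (chr18:31498043-31549008) have 1 tested gene between them. ARHGAP36 (chrX:131058242-131089883), IGSF1 (chrX:131273506-131578899) and STK26 (chrX:132023265-132075943) follow each other with no tested gene between. ARHGAP36 had 74.8, 99.95 and 100.4 gene TPM in Kelly, 0.908, 0.382 and 0.243 in SH-SY5Y and 7.61, 15.04 and 17.5 in BE(2)C, while STK26 had 87.9, 101 and 96.3 in Kelly, 15.1, 16.1 and 15.4 in SH-SY5Y and 0.465, 1.404 and 1.82 in BE(2)C, so these neighbours differed in which other line came second. NFIX (chr19:12995608-13098796) and LYL1 (chr19:13099033-13103161) were adjacent and both lower, as were ZNF439 and ZNF69. SPA17 and NRGN on chromosome 11 were lower together, NRGN, a calmodulin-binding protein of neurons, with 3.39, 2.401 and 3.74 against 31.8 to 67.7.

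Promoter windows of 86 higher and 45 lower members were in the RefSeq table. The median number of CG dinucleotides in the 250 bases was 18.5 in the higher set, 19 in the lower set and 21 over 10652 tested genes. Fewer than 5 were present in 11.6%, 8.89% and 7.15% of the windows, and 20 or more in 47.7%, 46.7% and 55.0%. The E-box CACGTG, a palindrome that MYC-family proteins can bind and that reads the same on both strands, was found in 10 of 86 higher windows (11.6%), 2 of 45 lower windows (4.44%) and 8.96% of all. These are counts of letters and say nothing of binding.

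Of the remaining members with wide gaps, FAM19A5, a secreted brain protein, had 68.1, 70.3 and 68.5 gene TPM in Kelly against at most 0.557. UTS2R, the urotensin receptor, had 64.9, 69.7 and 62.7 against at most 0.694, and TRIM29 had 178, 137 and 138 against at most 4.50. TMEM132C had 28.2, 35.8 and 33.9 and was listed at 0 in the other lines. On the lower side, CDCA7L, a MYC-interacting nuclear protein, had 0.0628, 0.216 and 0 in Kelly against 20.9 to 63.8, and FBXO17, an F-box protein, had 0.175, 0.0965 and 0.409 against 28.4 to 54.8. ITPRIPL1 had 0, 0 and 0.0568 against 22.8 to 45.7. FAM49A, beside MYCN on chromosome 2, had 16.7, 12.2 and 11.8 in Kelly, 2.73, 2.52 and 2.57 in SH-SY5Y and 0, 0 and 0.417 in BE(2)C. The rule parts Kelly from BE(2)C, which is also MYCN-amplified, so no member could follow the MYCN status of the lines.

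Members were named by a fixed rule on gaps, lists, positions and families. Outside it, DSC3, EGLN3, EPAS1, HEYL, JAG2, KCNG1, KCNJ12, LFNG, MAGEH1, MFNG, MSX2, NRGN, SPA17, TPTE and TUBA1C were chosen after their values were seen, as were the non-members named from the families. At the 4-fold threshold, the higher genes just inside were LCP1 (4.02-fold), KCNK5 (4.03-fold) and GTSF1 (4.06-fold), and just outside were RAB27B (3.96-fold), LOXL1 (3.93-fold) and PANX2 (3.81-fold). On the lower side GPR27 (4.28-fold), PLXNA4 (4.33-fold) and LSAMP (4.37-fold) were inside, and DUSP4 (3.98-fold), CDC42EP3 (3.92-fold) and GOLM1 (3.92-fold) outside. The size of the set rests on the scale. Read with the mean of the higher side at 10 or more, 132 higher and 93 lower genes qualified. On the deposited values, where genes hold 9.34% to 16.2% of the total, the same minimum left 9 higher and 11 lower genes, and a minimum of 1, chosen after seeing the data, gave 90 and 86.

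Across the 9 libraries the spike-ins took 83.7% to 90.6% of the deposited total. Genes took 9.34% to 11.01% of it in Kelly, 15.3% to 16.2% in SH-SY5Y and 13.2% to 15.5% in BE(2)C. Mitochondrial genes took 16.5% to 19.8% of the gene total in Kelly, 17.2% to 18.0% in SH-SY5Y and 24.5% to 35.3% in BE(2)C, and their part in the member levels was not tested beyond leaving them out of the total, which gave 121 higher (111 shared) and 75 lower (56 shared) genes. TPM keeps no read depth, so the depth behind each value is unknown. On deposited TPM no spike-in met the 4-fold rule. Of the 61 spike-ins at 10 or more, the widest ratios were 1.61 for Kelly above and 1.58 for Kelly below the other 6 libraries. These values are not on the gene TPM scale of the members, so the ratios are not like for like. By any amount, Kelly lay above all 6 others for 40 spike-ins and below for 12, SH-SY5Y for 2 and 12, and BE(2)C for 2 and 1. MYCN was 5947, 6393 and 6367 gene TPM in Kelly, 4320.4, 4959 and 5793 in BE(2)C and 30.1, 33.1 and 30.7 in SH-SY5Y, so it was high in both lines labelled as amplified.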

How the data were processed

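The 9 libraries were grouped by the cell line in the labels, 3 per line. The authors deposited 1 table of log10 values for 19837 entries. Back-transformed as log10(TPM + 1), each library summed to 966592 to 980009, from the values themselves. Per the submitters' processing notes, HISAT 0.1.6, Salmon 0.3.2 and GRCh38 were used, with no role stated. The step from transcripts to genes is not given in the sources. Left out were 92 spike-ins and 11 marker entries. Another 28 entries with a date in place of a symbol were counted in totals but not tested, and 1 of them met the rule on the lower side. The number of unused columns is 0.

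For the member rule and printed levels, values were rescaled so that gene entries alone made up the TPM total (gene TPM). For tests, they were divided by trimmed-mean factors of 0.758 to 1.17 (trimming 30% of log ratios and 5% of log levels). Then limma 3.58.1 in R 4.3.3, with its trend, was fitted to log2(scaled TPM + 1) over all 9 libraries and 13076 genes that reached 1 in 3 or more libraries, without a block. Benjamini-Hochberg adjusted p-values under 0.05 were called, two-sided. The pseudocount of 1 shrinks differences of low genes. The model was tested on simulated data.

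The members, the 23 gene lists and the tests were chosen with earlier results of these data known. Named members were the 12 widest gaps in each direction, list genes, those nearest the threshold, those in the 3 fullest windows of 10 Mb, the 10 widest BE(2)C to SH-SY5Y differences in each direction, and shared families by symbol. Some genes that this rule names are not reported here. Alternatives were the fold, the minimum, the scaling, the pseudocount, the filter, quantile normalization, a replicate block and each library left out. Coordinates are from GENCODE release 29, to which 18678 of 19706 symbols matched and 555 more by an older or newer symbol. Promoter sequences are from RefSeq (GRCh38.p14). Python 3.11.15 was used for the other steps.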

Additional observations from a re-analysis of the deposited data

Results flagged for a closer look

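The entry for an ampicillin selection marker, a vector gene that human cells do not carry, had a signal in all 9 libraries, with a lowest, median and highest deposited TPM of 147, 171 and 199. The other 10 reporter and selection entries stayed at or under 0.189. These entries were outside every comparison of Kelly with the other lines, and the source of the signal was not tested.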

How the results depend on the processing

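The number of genes that set Kelly apart moved with the rule. Higher and lower counts were 228 and 128 at 2-fold, 65 and 34 at 8-fold, and 74 and 30 with a minimum of 20. With the mean of the higher side at 10 or more, the lower count was 93. On the deposited scale the counts were 9 and 11, of which 9 and 6 were shared, and 5 and 5 of the 58 and 36 named members remained. Genes hold 9.34% to 16.2% of the total on that scale, so a minimum of 10 asks for more. A minimum of 1 there, added after seeing the data, gave 90 and 86. Trimmed-mean factors gave 107 (104 shared) and 66 (54 shared). Leaving out each library gave 120 to 130 higher and 56 to 62 lower members, with all 58 and 36 named members kept, since fewer values can only loosen the rule.

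In tests of BE(2)C against SH-SY5Y, library totals gave 1905 higher and 6099 lower genes and deposited values 1547 and 6639, in place of 3743 and 4020. The share of higher calls was 23.8% and 18.9%, and the median of all genes moved to −0.44 and −0.35. Members higher in Kelly and lower in BE(2)C were 14 with a pseudocount of 5. With library totals, members higher in Kelly split into 28 higher and 29 lower in BE(2)C. Members lower in Kelly split into 7 higher and 23 lower in BE(2)C with library totals, and 8 and 30 with deposited values. Kelly against both lines gave 719 higher and 2332 lower genes on deposited values, with 23.6% higher and a median of −0.24. With library totals 63.2% were higher. The balance of higher and lower calls thus turned in the lower members and in Kelly against both lines. In the higher members it was nearly level with library totals. No named gap changed sign in the alternatives run. The 4-fold rule fixed that in advance, since the rescalings were smaller than 4-fold and leaving out a library cannot narrow a gap. Of 20 members named for their BE(2)C to SH-SY5Y difference, none changed sign in that difference. TUBB4A alone lost its call, with a pseudocount of 0.1. Of 94 named gaps, 153 values under alternatives moved by more than the replicate spread and 881 did not.

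Without 1 library, BE(2)C against SH-SY5Y gave 3400 to 3766 higher and 3603 to 4052 lower genes, and Kelly against both lines 1485 to 1661 and 1306 to 1429. Higher members split into 32 to 39 and 21 to 23, and lower members into 16 to 21 and 10 to 13. With the replicate block the counts were 3645 and 3899, 1588 and 1387, 37 and 22, and 18 and 11. Libraries sharing a number did not deviate together (9 correlations from −0.05 to 0.03, and −0.04 to 0.04 for 18 other pairs). These correlations cannot tell whether libraries sharing a number were cultured or prepared together. TPM keeps no depth, so no counting error can be given for low values.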
